A study of Homo sapiens with 2 samples.

Results

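The WNT module comprised 47 of the 36601 genes in both count matrices, chosen by symbol: 19 WNT ligands, 10 Frizzled receptors (FZD), 4 R-spondins (RSPO), 3 LGR receptors, 5 secreted Frizzled-related proteins (SFRP1, SFRP2, SFRP4, SFRP5 and FRZB), 4 Dickkopf proteins (DKK), and the sclerostin pair SOST and SOSTDC1. Each of the 47 symbols matched exactly 1 row. The study dissociated 2 blood-generating heart-forming organoids (BG-HFOs) on day 14, each processed individually and grown from the human embryonic stem cell line hES3 NKX2.5-eGFP, which carries eGFP at the NKX2.5 locus, and sequenced each as 1 single-cell 3′ RNA library. Both organoids belong to 1 condition: Matrigel-embedded aggregates received BMP4, the GSK3 inhibitor CHIR and then the porcupine inhibitor IWP2, with VEGF, bFGF and haematopoietic cytokines, so there was no untreated group and no arm without WNT modulation. A BG-HFO lacks circulation and a body plan.

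WNT ligands are secreted lipid-modified proteins. Porcupine adds the lipid and the carrier WLS brings the ligand to the surface, where Frizzled receptors with LRP5 or LRP6 stabilise β-catenin, or with ROR and RYK coreceptors act without it. R-spondins bind LGR receptors and protect Frizzled receptors from the ligases RNF43 and ZNRF3, SFRP proteins bind the ligands, and DKK1 and sclerostin block the LRP coreceptors. In the embryo the pathway is needed early for mesoderm, is then held down while cardiac progenitors form, and acts again in the epicardium, the valves and the vasculature.

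The question asked of the module was which lineages were sources and which were receivers. Cells were assigned to lineages on raw UMIs (unique molecular identifiers, 1 per captured transcript) summed over 8 panels of lineage genes, and a cell was gated when it was positive for exactly 1 panel. Of 16792 cells kept in organoid 32.7 and 19893 in organoid 33.10, 9711 and 11396 passed. Endothelial cells were called arterial with 4 or more UMIs of CXCR4, SOX17, DLL4 and HEY2 and 0 of NR2F2, and venous with 2 or more UMIs of NR2F2 and at most 2 of the arterial genes. Mesenchymal cells with 3 or more UMIs of TBX18, ALDH1A2, BNC1 and UPK3B and at most 2 of LUM and DCN are called TBX18-gated mesenchyme, and those with 8 or more UMIs of LUM and DCN and at most 1 of the former genes LUM-high mesenchyme. No gate gene is a member of the module.

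Each level is given in CPM: the UMIs of a gene in a lineage relative to that lineage's total, on the usual CPM scale. Pairs of values are always in the order organoid 32.7, organoid 33.10. The 9 lineages that were tested held between 153 and 2068 cells per organoid, and 3 UMIs, the limit that a count of 0 allows, corresponded to between 0.128 and 1.26 CPM (counting error only). Endoderm had 24 and 13 gated cells and was therefore not tested. In such sums, fewer expressing cells and less RNA per cell cannot be told apart. The 2 libraries shared 100 cell barcodes.

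Gates were checked on genes outside them. Venous cells had 428 and 385 CPM of APLNR, a venous receptor, against 86.2 and 79.5 CPM in arterial cells, while GJA4, an arterial connexin, had 542 and 490.5 CPM in arterial cells against 200.3 and 152 CPM in venous cells. TBX18-gated cells carried TCF21 at 257 and 258 CPM, but TCF21 belongs to the mesenchymal panel and is no outside check. The epicardial gene UPK1B, outside the gates, was at 4.00 and 1.75 CPM. Of the gate's own genes TBX18 had 291 and 310.3 CPM and UPK3B 0.267 and 0 CPM, so the gate rests little on the latter, and the cells are not called epicardium. They also carried cardiac transcripts, with TNNT2 at 907 and 956 CPM against 6853 and 5834 CPM in cardiomyocytes and 107 and 103 CPM in LUM-high mesenchyme. The granulocyte gate mixed cells led by MPO with cells led by EPX, and CTSG was at 8.95 and 0.419 CPM in it.

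Summed over all members, the module was highest in mesenchyme, at 1545 and 1241 CPM in TBX18-gated and 1374 and 1291 CPM in LUM-high cells, and lowest in macrophages, at 119.5 and 86.4 CPM. The groups of members were spread differently over the lineages. WNT ligands summed highest in cardiomyocytes, at 189.9 and 221 CPM, and next in erythroid cells, at 138 and 161 CPM. WNT5B alone gave 118 and 138 CPM of the cardiomyocyte sum and 130.0 and 149.7 CPM of the erythroid sum. TBX18-gated mesenchyme had 107 and 88.7 CPM of ligands and LUM-high mesenchyme 127 and 86.1 CPM, with WNT5B at 10.2 CPM or less in either. Among the tested lineages, R-spondins and SFRP antagonists peaked in both mesenchymal lineages. Mesenchymal cells in neither gate, which were not tested, had 309 and 394 CPM of R-spondins and 612 and 474 CPM of SFRP antagonists. Frizzled receptors were highest in TBX18-gated mesenchyme, at 284 and 266 CPM. Arterial endothelium, at 219.5 and 199 CPM, overlapped with LUM-high mesenchyme, at 209 and 203 CPM, and lay above venous endothelium, at 133 and 132 CPM.

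**Figure D1:**
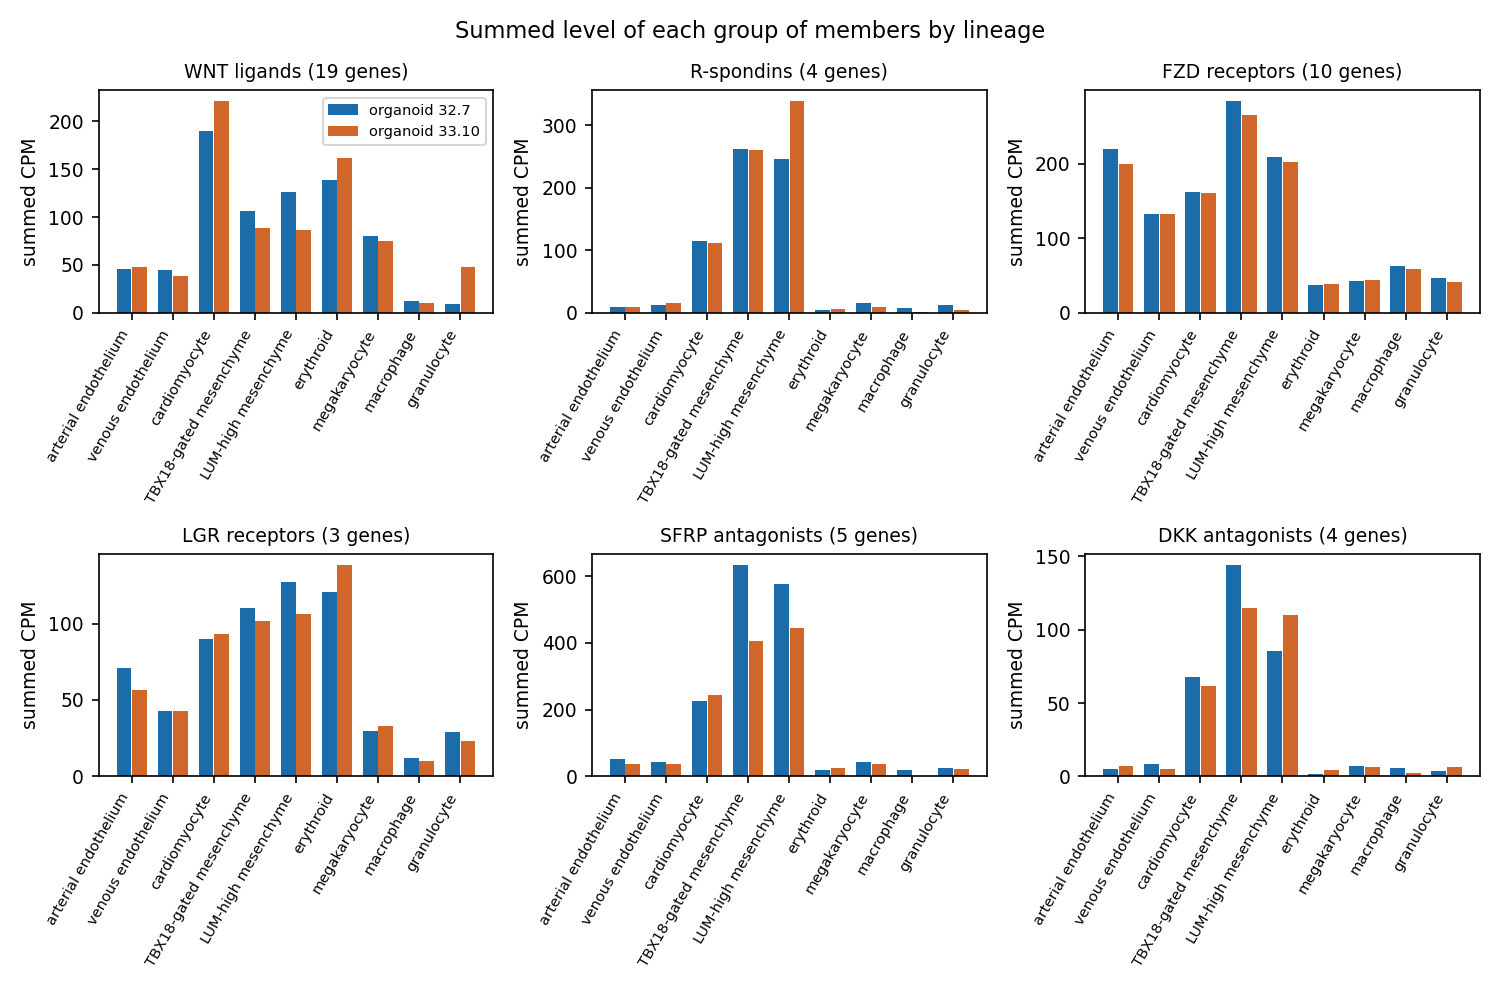
Summed CPM (y axis) of 6 groups of members in each of the 9 tested lineages (x axis), 1 bar per organoid and no error bars. WNT ligands are highest in cardiomyocytes and erythroid cells, R-spondins, SFRP and DKK proteins in mesenchyme, with cardiomyocytes next, and Frizzled receptors are lowest in the 4 blood lineages, between 38.1 and 62.4 CPM. WNT5B alone gave 118 and 138 CPM of the cardiomyocyte and 130.0 and 149.7 CPM of the erythroid ligand sum.

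A member counts as expressed here where it reached 10 CPM in both organoids in at least 1 tested lineage. That held for 22 of 47: WNT2B, WNT5A, WNT5B and WNT11 of 19 ligands, RSPO1, RSPO3 and RSPO4, FZD1, FZD2, FZD3, FZD4, FZD6, FZD7 and FZD8 of 10 Frizzled receptors, LGR4 and LGR5, SFRP1, SFRP5 and FRZB, DKK1 and DKK3, and SOST. For 17 of the 22 the highest lineage was the same in both organoids. Of the other 25 members, 14 stayed under 1 CPM in every tested lineage of both organoids: 11 WNT ligands (WNT1, WNT3A, WNT6, WNT7A, WNT7B, WNT8A, WNT8B, WNT9A, WNT9B, WNT10A and WNT10B) with FZD10, LGR6 and DKK4. The remaining 11, among them WNT2, WNT3, WNT16, FZD5 and DKK2, peaked between 1 and 15.4 CPM.

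**Figure D2:**
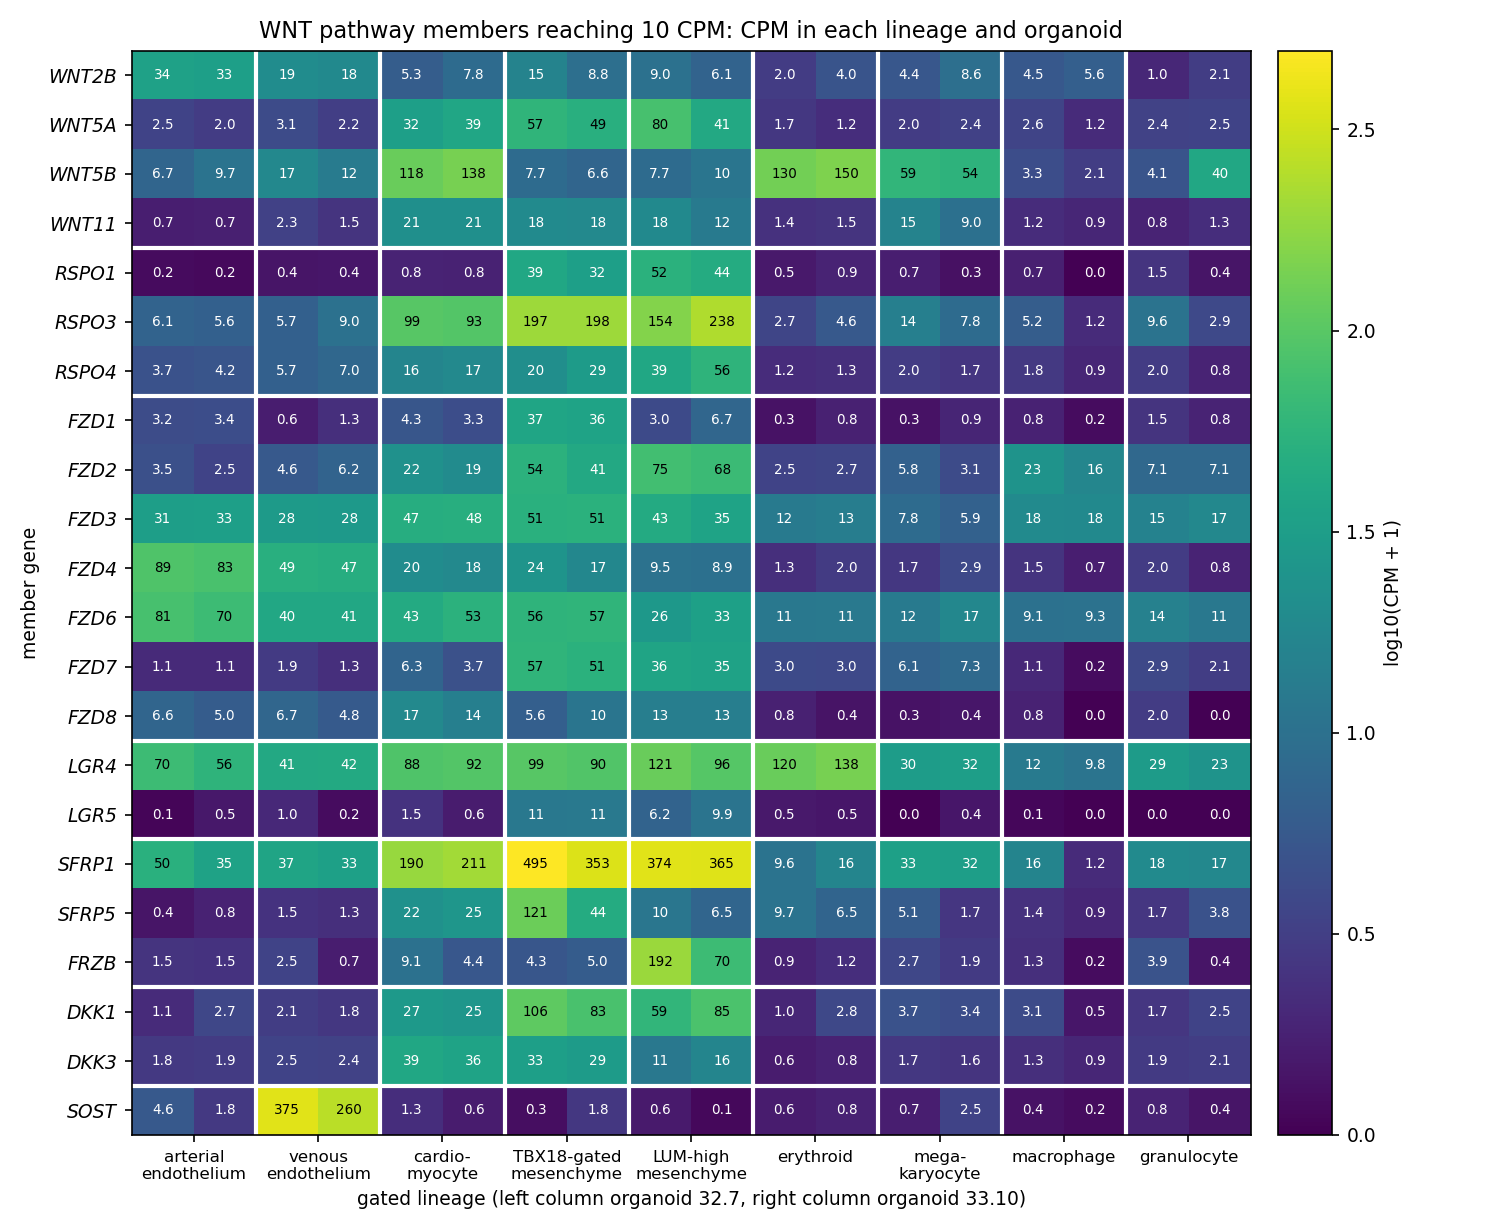
CPM of the 22 members that reached 10 CPM (rows, grouped by role) in the 9 tested lineages (column pairs, organoid 32.7 left and 33.10 right); the colour is log10(CPM + 1) and each cell prints its CPM. SOST fills the venous columns alone, WNT5B the cardiomyocyte, erythroid and megakaryocyte columns, and RSPO3, SFRP1 and DKK1 the mesenchymal columns with lower values in cardiomyocytes.

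Promoters are shown for 4 members: SOST of venous endothelium, FZD4 of arterial endothelium, and RSPO3 and DKK1, both of mesenchyme and cardiomyocytes. DKK1 is the antagonist that WNT signalling itself is known to induce. Each run is the 250 bases before the transcription start, 5′ to 3′ on the gene's own strand from RefSeq on GRCh38.p14, whose table matched 32 of the 47 members with 37 start sites. The windows are chr17:43758792-43759041 on the minus strand for SOST, chr11:86955396-86955645 on the minus strand for FZD4, chr6:127118421-127118670 on the plus strand for RSPO3 and chr10:52314031-52314280 on the plus strand for DKK1. Capitals mark matches on either strand to any of 6 motifs. TCF/LEF factors bind CTTTGAT or, as a variant, CTTTGAA. The TATA box was searched as TATAAA, the CCAAT box by its name and the GC box as GGGCGG. The sixth was AGGTCA, an element of nuclear receptors such as NR2F2, the factor used in the venous gate.
SOST: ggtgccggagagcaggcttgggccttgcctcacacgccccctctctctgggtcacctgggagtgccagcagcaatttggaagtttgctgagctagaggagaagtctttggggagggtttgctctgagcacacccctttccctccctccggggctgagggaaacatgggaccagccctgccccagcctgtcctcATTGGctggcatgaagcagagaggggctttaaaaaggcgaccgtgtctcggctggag
FZD4: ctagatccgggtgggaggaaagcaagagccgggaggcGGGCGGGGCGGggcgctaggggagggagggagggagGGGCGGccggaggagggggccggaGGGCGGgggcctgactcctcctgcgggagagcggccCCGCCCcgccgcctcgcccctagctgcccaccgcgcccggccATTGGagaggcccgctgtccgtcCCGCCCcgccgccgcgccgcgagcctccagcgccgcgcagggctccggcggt
RSPO3: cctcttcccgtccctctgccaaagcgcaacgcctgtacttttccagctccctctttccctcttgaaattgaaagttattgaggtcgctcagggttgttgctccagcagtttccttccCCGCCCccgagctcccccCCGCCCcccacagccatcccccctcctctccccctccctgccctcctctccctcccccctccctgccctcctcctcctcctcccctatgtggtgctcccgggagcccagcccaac
DKK1: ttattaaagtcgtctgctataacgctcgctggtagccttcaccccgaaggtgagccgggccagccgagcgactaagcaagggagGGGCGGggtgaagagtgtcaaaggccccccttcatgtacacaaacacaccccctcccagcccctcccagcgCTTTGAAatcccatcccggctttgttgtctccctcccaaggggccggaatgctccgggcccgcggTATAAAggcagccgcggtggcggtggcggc

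The gene SOST lies at chr17:43753738-43758791 on the minus strand of GRCh38 (GENCODE release 44). Its window held 1 match, a CCAAT element on the opposite strand 57 to 53 bases before the start, and none to the nuclear receptor element. DKK1 held a TCF/LEF motif 95 to 89 bases and a TATA box 30 to 25 bases before its start. FZD4 held a CCAAT box and 6 GC boxes, the first pair of which overlap, RSPO3 held GC boxes alone, and DKK1 held 1 GC box as well. Of all 35116 windows of the same length 5.94% held a TCF/LEF motif, against 1 of the 37 windows of members. The TATA box was in 10.7% and 3 of 37, the CCAAT box in 32% and 16 of 37, the GC box in 42.6% and 26 of 37, and the nuclear receptor element in 12.1% and 2 of 37. A match describes letters and is not a binding site, and a window without a match says nothing about regulation.

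Among the ligands, WNT5B, which mostly signals without β-catenin, was high in both blood and heart muscle. Erythroid cells had 130.0 and 149.7 CPM, cardiomyocytes 118 and 138 CPM, and megakaryocytes 58.6 and 53.9 CPM. The erythroid and cardiomyocyte ranges overlapped, and both lay above megakaryocytes and above the remaining tested lineages, which reached 17.0 CPM except for granulocytes at 4.05 and 40.2 CPM. At least 1 WNT5B UMI was found in 43.3% and 39.6% of erythroid cells, with a median of 12664.5 and 8787.5 UMIs per cell, and in 39.4% and 52.9% of cardiomyocytes, with a median of 6514 and 8635. Macrophages, at medians of 11316 and 13235 UMIs, gave 4.22% and 3.24%. After each cell was thinned to 3000 UMIs the shares were 17.2% and 21.4%, 22.0% and 29.1%, and 1.21% and 0.881%, with 95% exact intervals of 14.4% to 20.3% and 19.5% to 23.3% for erythroid cells. Exact intervals here and below cover the sampling of cells within 1 organoid and not the spread between organoids. Shallower cells left out numbered 53 and 139 erythroid cells, 237 and 81 cardiomyocytes and 73 and 20 macrophages.

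Within the erythroid gate WNT5B was uneven. Erythroid cells with 2 or more UMIs of the cell cycle genes MKI67, TOP2A and CENPF had 168 and 216 CPM of WNT5B, and those with 0 had 44.8 and 76.2 CPM, a split chosen after the data were seen. The cycling cells were also deeper, with a median of 21341 and 14761.5 UMIs against 7801 and 6651, and the part of depth was not tested. LGR4 did not follow this split, at 115 and 128 CPM in cycling and 124 and 151 CPM in non-cycling cells. Among granulocytes, cells led by EPX had 9.75 and 56.9 CPM of WNT5B, while MPO-led cells had 1.47 and 0 CPM. The value of 0 comes from 41 cells, where a count of 0 allows up to 4.27 CPM. The make-up of the gate also differed, with 254 and 41 MPO-led and 132 and 112 EPX-led cells. The part of this make-up in the granulocyte difference between organoids was not tested.

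WNT5A, the close relative of WNT5B, followed the stroma instead, with 80.4 and 41.0 CPM in LUM-high and 56.8 and 49.3 CPM in TBX18-gated mesenchyme, which overlapped, and 32.4 and 38.5 CPM in cardiomyocytes. In arterial and venous endothelium and in blood it stayed at or under 3.14 CPM. WNT11, a ligand of cardiac morphogenesis, had 21.0 and 21.0 CPM in cardiomyocytes, 18.4 and 17.7 CPM in TBX18-gated and 18.2 and 12.0 CPM in LUM-high mesenchyme, with megakaryocytes at 15 and 8.95 CPM. WNT2B, which activates β-catenin signalling, was highest in endothelium, at 34.1 and 32.6 CPM in arterial and 19.3 and 18.2 CPM in venous cells. TBX18-gated mesenchyme followed at 15.2 and 8.76 CPM. Venous cells also had WNT5B, at 17.0 and 12.1 CPM. WNT2 reached 8.2 and 11.2 CPM in cardiomyocytes and 0 UMIs in venous cells, and over both organoids was at least 30.5-fold higher in cardiomyocytes than the limit of 3 UMIs over the venous cells.

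The R-spondins separated by lineage within the stroma and heart. RSPO3, the R-spondin required for placental and coronary vessels, had 197 and 198 CPM in TBX18-gated, 154 and 238 CPM in LUM-high mesenchyme and 98.7 and 92.5 CPM in cardiomyocytes. RSPO1 had 39.4 and 32.2 CPM in TBX18-gated and 52.3 and 44.2 CPM in LUM-high mesenchyme but 0.841 and 0.793 CPM in cardiomyocytes, a level that was also seen in erythroid cells, at 0.523 and 0.851 CPM. RSPO4 had 38.9 and 55.9 CPM in LUM-high, 20.3 and 29.3 CPM in TBX18-gated mesenchyme and 16.0 and 17.4 CPM in cardiomyocytes. Of all RSPO3 UMIs in kept cells, 39.2% and 43.9% came from mesenchymal cells outside both subtype gates, 13.9% and 7.57% from LUM-high cells, 6.15% and 4.55% from cardiomyocytes and 32.7% and 38.2% from ungated cells.

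LGR4, the broad R-spondin receptor, was between 41.3 and 138 CPM in endothelium, cardiomyocytes, mesenchyme and erythroid cells and between 9.81 and 31.8 CPM in the other 3 blood lineages. LGR5, a stem cell receptor, reached 10.9 and 11.4 CPM in TBX18-gated and 6.19 and 9.95 CPM in LUM-high mesenchyme, 5.92 and 7.74 CPM in mesenchyme of neither gate and 1.47 CPM or less in the other 7 tested lineages. FZD3 and FZD6, tied to planar polarity, were present in all 9 lineages, from 5.93 CPM in megakaryocytes upwards for FZD3 and from 9.14 CPM in macrophages upwards for FZD6. FZD4, the receptor of retinal vessels, had 89.3 and 82.7 CPM in arterial and 49.0 and 46.6 CPM in venous cells and 2.91 CPM or less in blood.

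Among the tested lineages, FZD7, FZD1 and FZD2 were highest in mesenchyme and FZD8 in cardiomyocytes. FZD7 had 57.0 and 51.2 CPM in TBX18-gated and 36.2 and 35.0 CPM in LUM-high mesenchyme, and 6.31 and 3.70 CPM in cardiomyocytes. FZD1 had 37.3 and 35.7 CPM in TBX18-gated cells and 2.99 and 6.68 CPM in LUM-high cells. FZD2 was highest in LUM-high mesenchyme, at 75.2 and 67.6 CPM, and had 23.4 and 16.1 CPM in macrophages, where the other blood lineages had 7.12 CPM or less. FZD8 was highest in cardiomyocytes, at 17.4 and 13.6 CPM, just above LUM-high mesenchyme, at 13.3 and 13.2 CPM.

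SFRP1, a secreted decoy for WNT ligands, had 495 and 353 CPM in TBX18-gated and 374 and 365 CPM in LUM-high mesenchyme, which overlapped, then 190.4 and 211 CPM in cardiomyocytes and 50.1 and 34.5 CPM in arterial cells. In macrophages it had 15.5 and 1.17 CPM, and in mesenchyme of neither gate 487 and 430 CPM. SFRP5, a decoy known from the sinus venosus and proepicardium, had 121 and 44.5 CPM in TBX18-gated mesenchyme, and FRZB, the decoy first known from cartilage, had 192 and 69.6 CPM in LUM-high mesenchyme. Both differed between organoids, 2.73-fold for SFRP5 and 2.75-fold for FRZB, yet in each organoid they stood above every other tested lineage.

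DKK1, which blocks LRP5 and LRP6, had 106 and 82.6 CPM in TBX18-gated mesenchyme, 58.9 and 85.0 CPM in LUM-high mesenchyme, 27.4 and 25.2 CPM in cardiomyocytes and 3.75 CPM or less in endothelium and blood. Mesenchyme of neither gate had 115 and 129 CPM of DKK1. DKK3, a divergent family member, was highest in cardiomyocytes, at 39.0 and 35.6 CPM, with TBX18-gated mesenchyme at 32.5 and 29.1 CPM. Where cardiomyocyte values follow the mesenchyme, mesenchymal transcripts in the cardiomyocyte gate are given beside them: COL1A1 had 112 and 88.5 CPM there, against 1181 and 920.0 CPM in TBX18-gated cells. Their part in the cardiomyocyte levels was not tested.

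Endoderm was measured in too few cells for a test. FZD5, a gut receptor, had 17.2 and 22.3 CPM, LGR5 8.59 and 28.7 CPM and FZD7 27.5 and 70.2 CPM in the 24 and 13 gated cells, where 3 UMIs correspond to 5.16 and 9.57 CPM. LGR4 had 129 and 112 CPM there.

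Tests compared lineages by edgeR's quasi-likelihood test on the UMIs summed per lineage and organoid. All 9 lineages of both organoids were in 1 fit, with Benjamini-Hochberg adjustment over 19591 genes. The fit rescales the lineage totals (TMM), so a fold change can differ from the ratio of the CPM values printed beside it. Where a side is a mean of several lineages, the fit averages their log levels. The CPM printed for such a side is their plain average, so fold change and CPM ratio can differ further, even in direction. The replicates are 2 organoids of 1 line. Each standard error (SE) is the size of the log2 fold change divided by the square root of the test's F statistic. It therefore draws on spread pooled over the 9 lineages, with the lineages of an organoid treated as independent. Of the 47 members 30 passed the filter on low counts and 17 did not, and since a member can pass through the lineage in which it is high, counts below describe the 30 and are not evidence about the module.

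Venous and arterial endothelium differed in 6 of the 30 members, 1 higher and 5 lower in venous cells, which is 20.0% against 20.7% of all genes tested (9.28% higher and 11.4% lower). The member that rose was SOST, which encodes sclerostin, the osteocyte antagonist of LRP5 and LRP6. SOST had 375 and 260.4 CPM in venous and 4.60 and 1.81 CPM in arterial cells, with no overlap, a log2 fold change of 6.45 ± 0.39 (SE, n = 2 organoids, edgeR adjusted p = 2.7e-08). Endothelial cells in neither gate had 77.0 and 77.3 CPM, and outside endothelium the gene stayed at or under 2.46 CPM, also in TBX18-gated cells, which carried NR2F2 at 109.8 and 80.6 CPM. The part of NR2F2 in the level of SOST was not tested.

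At least 1 SOST UMI was found in 49.2% and 48.1% of venous cells, against 11.8% and 11.7% of endothelial cells of neither gate, 1.79% and 0.942% of arterial cells and, as background, 0.419% and 0.580% of erythroid cells, at medians of 10802.5 and 9784.5, 6891 and 6316, 13065 and 11261.5, and 12664.5 and 8787.5 UMIs. Thinned to 3000 UMIs the venous shares were 37.0% and 34.2% (95% exact intervals 32.2% to 42.1% and 29.6% to 39.1%), those of endothelium of neither gate 8.99% and 8.61%, the arterial shares 0.694% and 0.438% and the erythroid shares 0.302% and 0.415%. Across all gated endothelium SOST was higher with more NR2F2 UMIs in a cell, from 14.5 and 14.2 CPM at 0 through 73.3 and 84.6 CPM at 1 to 302 and 256 CPM at 5 or more. Over the arterial gate genes it went from 326 and 252 CPM at 0 UMIs to 6.36 and 7.70 CPM at 10 or more. These strata were chosen after the data were seen, use the gate genes and so get no test, and deeper strata hold deeper cells, with medians of 9943 and 8463 UMIs at 0 and 14649.5 and 12885.5 at 5 or more NR2F2 UMIs.

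The 5 members that were lower in venous cells were the ligand WNT2B and the receptors FZD1, FZD4, FZD6 and LGR4. FZD6 had 40.0 and 40.7 CPM in venous and 81.2 and 69.8 CPM in arterial cells and fell by 1.06 ± 0.17 on the log2 scale (edgeR adjusted p = 0.00033). FZD4 fell by 1.00 ± 0.20 (edgeR adjusted p = 0.0022) and LGR4 by 0.75 ± 0.18 (edgeR adjusted p = 0.0063), the latter from 70.3 and 55.6 CPM in arterial to 41.3 and 42.2 CPM in venous cells. In each of these the arterial values of both organoids lay above both venous values. WNT2B fell by 0.98 ± 0.30 (edgeR adjusted p = 0.030) and FZD1, at 3.39 CPM or less, by 1.90 ± 0.53 (edgeR adjusted p = 0.019). FZD1 had only 3 and 6 UMIs in venous cells, or 0.628 and 1.32 CPM, so its fold change rests on few UMIs. WNT2B lost its call with DESeq2 (adjusted p = 0.0754). With 5% of free RNA removed the edgeR adjusted p was 0.0714 for WNT2B, 0.0575 for FZD1 and 0.0501 for FZD4, and in cells of 4000 to 25000 UMIs it was 0.0605 for LGR4.

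**Figure D3:**
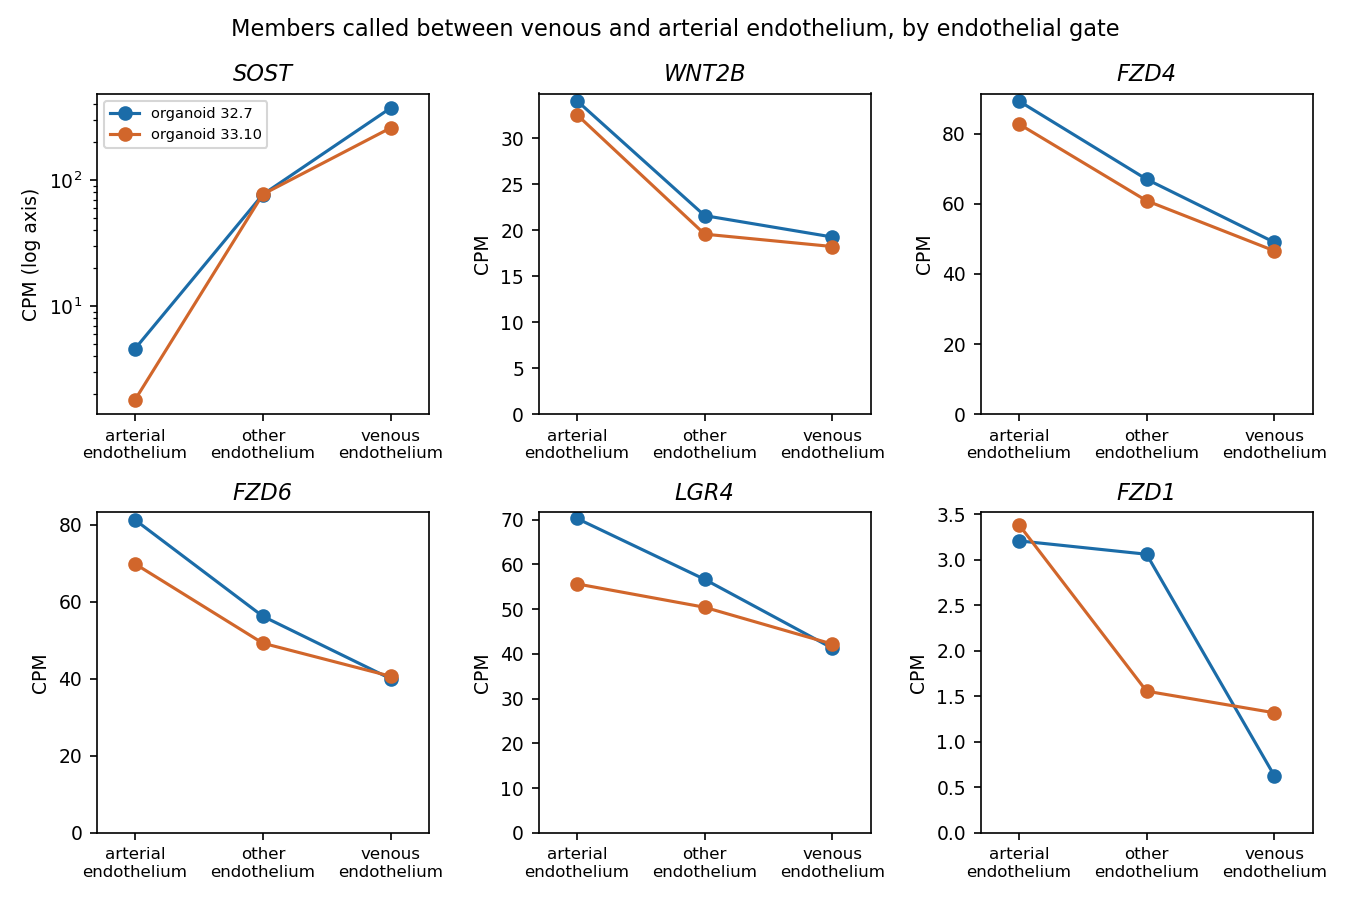
CPM (y axis, logarithmic for SOST) of the 6 members called between venous and arterial endothelium in the 3 endothelial gates (x axis), 1 line per organoid, no error bars. SOST goes from 4.60 and 1.81 CPM in arterial to 375 and 260.4 CPM in venous cells with endothelium of neither gate between them, and WNT2B, FZD4, FZD6 and LGR4 are lower along the same axis in both organoids.

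FZD4 was detected in 63.0% and 58.0% of arterial and 40.6% and 34.8% of venous cells, and after thinning in 22.4% and 20.9% and in 13.0% and 11.8%, with macrophages at 0.605% and 0% after thinning (0 of 227 cells allows up to 1.61% by the exact interval). Over strata of the arterial gate genes FZD4 went from 44.7 and 48.6 CPM at 0 UMIs to 93.2 and 86.0 CPM at 10 or more. WNT16 and WNT11 missed the threshold, at log2 fold changes of 2.65 ± 0.91 (edgeR adjusted p = 0.054) and 1.30 ± 0.45 (edgeR adjusted p = 0.055). With the organoid as a block, which pairs the lineages of an organoid, both were called, at edgeR adjusted p = 0.043 and 0.032. WNT16 had 1.89 and 0.439 CPM in venous against 0.0479 and 0.282 CPM in arterial cells. Its venous value in organoid 33.10 lay under the 3-UMI limit there of 0.659 CPM. The fold change and the block call of WNT16 therefore rest on few UMIs.

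TBX18-gated and LUM-high mesenchyme differed in 10 of 30 members, 5 in each direction, or 33.3% against 15.1% of all genes tested (6.68% higher and 8.41% lower). SFRP5, FZD1, DKK3, FZD4 and FZD6 were higher in TBX18-gated cells. SFRP5 rose by 3.10 ± 0.44 on the log2 scale (edgeR adjusted p = 0.00022) from 10.4 and 6.54 CPM in LUM-high to 121 and 44.5 CPM in TBX18-gated cells, and FZD1 by 2.83 ± 0.35 (edgeR adjusted p = 7.0e-05). DKK3, whose TBX18-gated and LUM-high values did not overlap, rose by 1.07 ± 0.18 (edgeR adjusted p = 0.0011). The median log2 fold change over the 30 was -0.04, against 0 over all genes.

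FRZB, WNT16, DKK2, RSPO4 and FZD2 were lower in TBX18-gated cells. FRZB had 4.26 and 5.04 CPM there and fell by 4.98 ± 0.57 (edgeR adjusted p = 3.5e-05). WNT16 had 0 UMIs in TBX18-gated cells and 3.86 and 7.09 CPM in LUM-high cells, and over both organoids was at least 13.8-fold higher in the latter than the limit of 3 UMIs. DKK2, a DKK1 relative, fell by 1.697 ± 0.45 (edgeR adjusted p = 0.018), from 15.4 and 9.13 CPM to 5.60 and 3.07 CPM, RSPO4 by 1.07 ± 0.22 (edgeR adjusted p = 0.0046) and FZD2 by 0.75 ± 0.23 (edgeR adjusted p = 0.039). FZD2 lost its call with DESeq2 (adjusted p = 0.0765) and FZD4 with 5% of free RNA removed (edgeR adjusted p = 0.0939). RSPO3, SFRP1, DKK1 and WNT5A, the members at the highest levels in these cells within their own groups, gave log2 fold changes between -0.37 and 0.25, none past the threshold. On simulated counts this contrast recovered 52 of 100 genes changed by 1 and 75 of 100 changed by 2 on the log2 scale. A member without a call can therefore still differ.

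Over the whole mesenchymal gate the antagonists differed along the LUM axis, in strata chosen after the data were seen and described without a test. FRZB had 5.33 and 3.87 CPM in cells with 0 UMIs of LUM and DCN, 44.3 and 20.4 CPM at 3 to 7, 97.0 and 45.8 CPM at 8 to 31 and 702.5 and 334 CPM at 32 or more, the last stratum holding 258 and 46 cells. SFRP5 moved the opposite way, from 90.5 and 33.5 CPM at 0 to 11.6 and 7.62 CPM at 32 or more. SFRP1, DKK1 and RSPO3 were also lower at the top, RSPO3 at 310.03 and 346 CPM at 0 and 106 and 184 CPM at 32 or more, while RSPO1 went from 24.7 and 21.7 CPM to 58.2 and 77.5 CPM. At every step of the axis FRZB was higher in organoid 32.7 than in organoid 33.10.

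**Figure D4:**
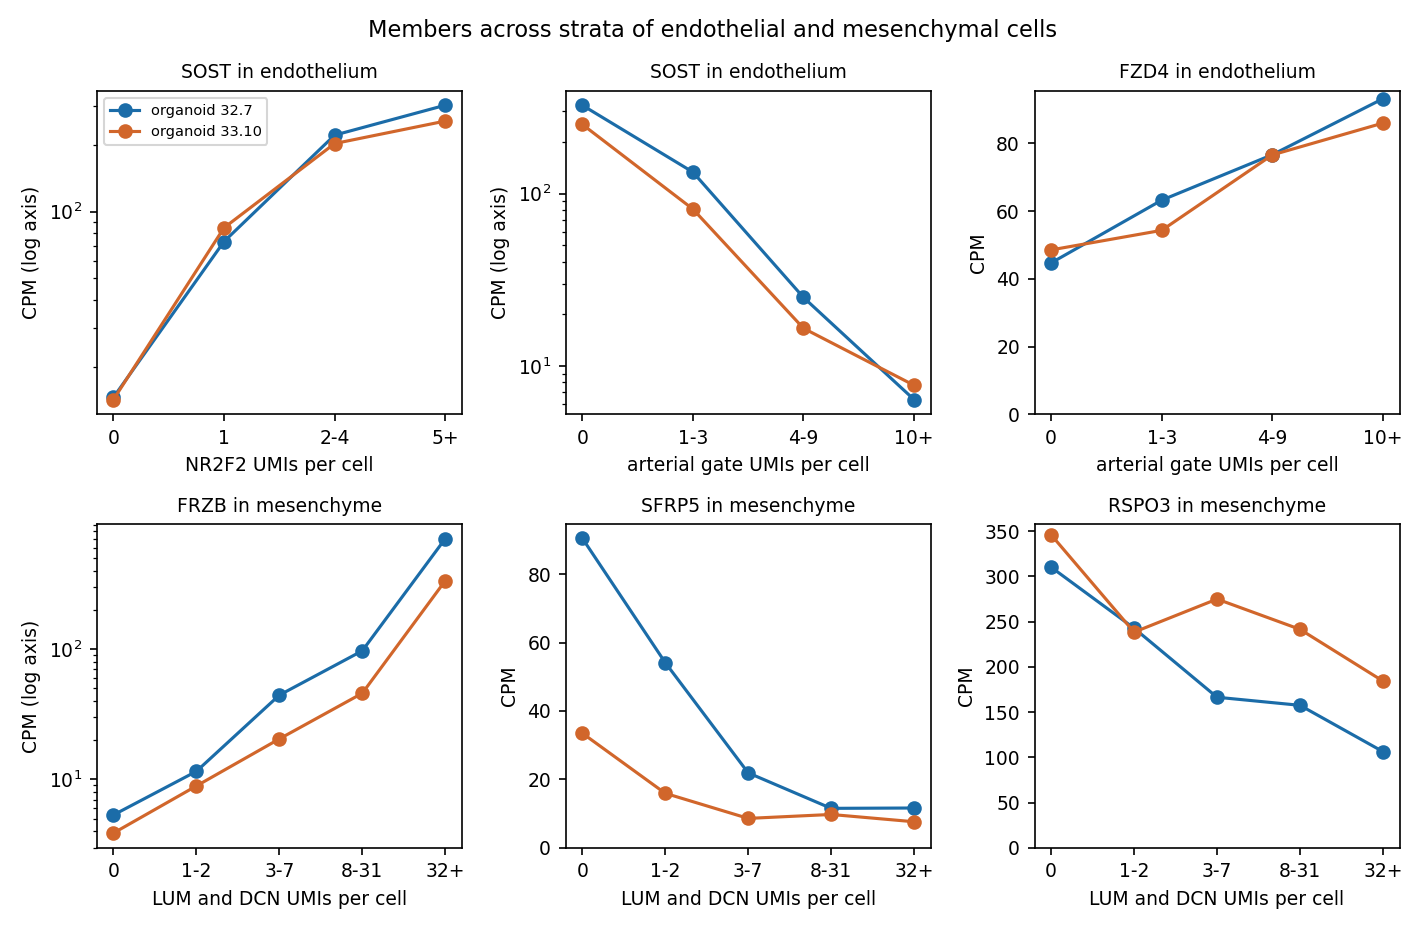
CPM (y axes, logarithmic for SOST and FRZB) of SOST, FZD4, FRZB, SFRP5 and RSPO3 across strata of raw UMIs of the gate genes per cell (x axes) in all cells of the endothelial or mesenchymal gate, 1 line per organoid. SOST is higher with more NR2F2 and lower with more arterial UMIs, FZD4 is higher with more arterial UMIs, FRZB is higher with more LUM and DCN to 702.5 and 334 CPM, and SFRP5 and RSPO3 end lower than they begin.

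Cardiomyocytes and TBX18-gated mesenchyme differed in 13 of 30 members, 4 higher and 9 lower in cardiomyocytes, or 43.3% against 33.8% of all genes tested (17.2% higher and 16.6% lower). WNT5B rose by 4.43 ± 0.56 on the log2 scale (edgeR adjusted p = 1.7e-05) from 7.73 and 6.57 CPM, and WNT2 by 3.55 ± 0.55 (edgeR adjusted p = 0.00028), with FZD8 and DKK3 next. WNT2 had 1.60 and 0.438 CPM in TBX18-gated cells, the latter under the 3-UMI limit there of 0.657 CPM. The fold change of WNT2 therefore rests on few UMIs. Among the 9 that were lower, the log2 fold change was -5.17 ± 0.37 for RSPO1 (edgeR adjusted p = 4.7e-08), -3.18 ± 0.27 for FZD7 (edgeR adjusted p = 2.4e-07), -3.17 ± 0.55 for LGR5 (edgeR adjusted p = 0.00039) and -2.99 ± 0.35 for FZD1 (edgeR adjusted p = 8.7e-06). FZD2, SFRP2, SFRP5, DKK1 and DKK2 made up the rest, and SFRP2 rested on organoid 32.7, at 13.3 and 1.10 CPM in TBX18-gated cells. DKK3 lost its call with DESeq2 (adjusted p = 0.132) and FZD8 with cells of 4000 to 25000 UMIs alone (edgeR adjusted p = 0.0916). RSPO3 gave -0.79 ± 0.30 (edgeR adjusted p = 0.058) and was called with the organoid as a block (edgeR adjusted p = 0.00999), with both cardiomyocyte values below both TBX18-gated values. The part of the TNNT2 level of the TBX18 gate, 907 and 956 CPM, in these differences was not tested.

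**Figure D5:**
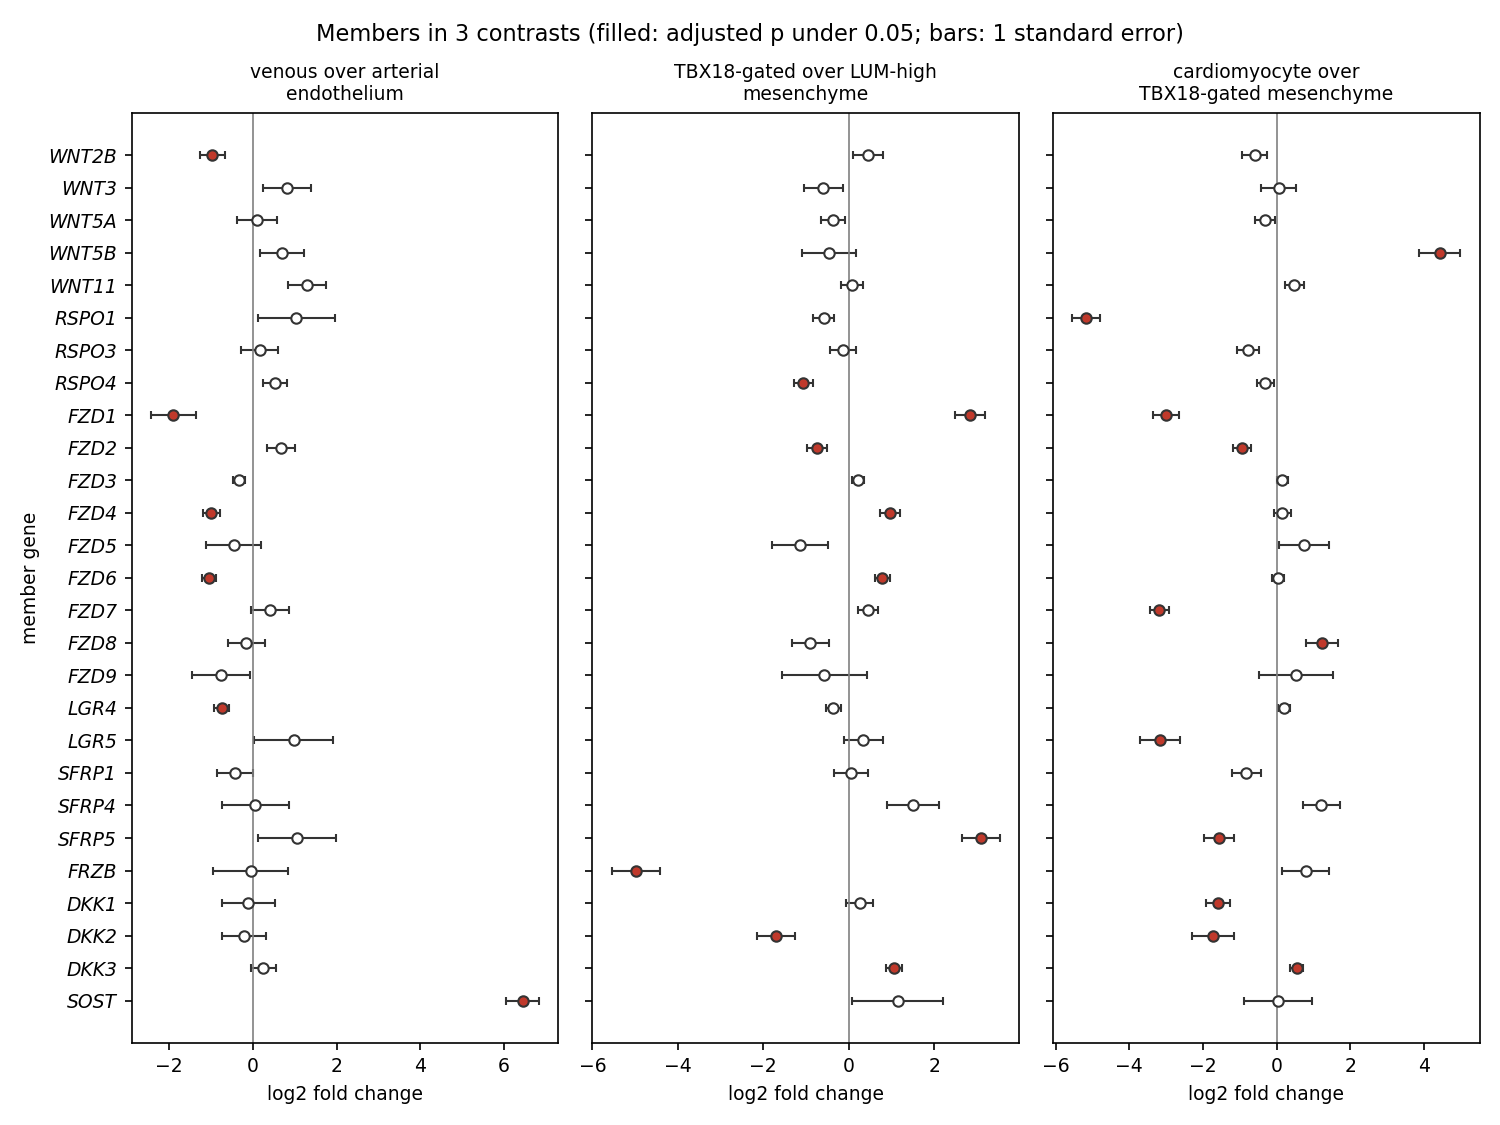
Log2 fold changes (x axes) with 1 standard error for 27 members (y axis) in 3 contrasts of the edgeR fit. Filled points have an adjusted p under 0.05. WNT2, WNT16 and SFRP2, at or near 0 UMIs on 1 side of at least 1 contrast, are left out. Other members with few UMIs, such as FZD9, are kept. SOST stands at 6.45 in the endothelial contrast, SFRP5 and FRZB at 3.10 and -4.98 between the mesenchymal gates, and WNT5B and RSPO1 at 4.43 and -5.17 between cardiomyocytes and TBX18-gated mesenchyme.

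Against endothelium, the mean of arterial and venous cells, cardiomyocytes were higher in 20 and lower in 3 of 30 members, or 76.7% against 57.5% of all genes tested (30% higher and 27.5% lower). SFRP5, WNT11, DKK3, RSPO3, WNT5A, DKK1 and WNT5B rose by 3.67 or more on the log2 scale, DKK3 by 4.23 ± 0.17 (edgeR adjusted p = 1.3e-11). WNT2 was higher too, at 8.2 and 11.2 CPM against 0.0479 and 0.0282 CPM, and its fitted fold is left out because venous cells held 0 UMIs. The 3 that fell were SOST, WNT2B and FZD4, FZD4 by 1.66 ± 0.19 (edgeR adjusted p = 1.9e-06). FZD6 gave -0.08 ± 0.14 and did not pass the threshold.

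Endothelium differed from mesenchyme in the most members, 4 higher and 22 lower of 30, or 86.7% against 56.2% of all genes tested (27.5% higher and 28.7% lower). The 4 were SOST, FZD4, WNT2B and FZD6, by 5.61 ± 0.40, 2.301 ± 0.16, 1.44 ± 0.23 and 0.51 ± 0.12 on the log2 scale (edgeR adjusted p = 8.8e-09, 5.4e-09, 5.7e-05 and 0.0019). All 5 SFRP antagonists, the 3 tested DKK and the 3 tested R-spondin genes were lower in endothelium, with log2 fold changes of -7.07 ± 0.31 for RSPO1 (edgeR adjusted p = 3.2e-11) and -5.35 ± 0.31 for DKK1 (edgeR adjusted p = 7.7e-10), except that SFRP4 lost its call with DESeq2 (adjusted p = 0.0862). RSPO1 had 0.419 and 0.439 CPM in venous cells, under the 3-UMI limits there of 0.628 and 0.659 CPM. Its fold change therefore rests on few UMIs. The median over the 30 members was -2.74, against -0.02 over all genes.

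Blood, the mean of the erythroid, megakaryocyte, macrophage and granulocyte gates, was higher than endothelium in 7 and lower in 13 of 30 members, or 66.7% against 61% of all genes tested (30.6% higher and 30.4% lower). FZD5 rose by 2.44 ± 0.36 (edgeR adjusted p = 2.5e-05), with 7.32 and 6.34 CPM in erythroid cells, 9.20 and 7.28 CPM in megakaryocytes and 6.88 and 13.5 CPM in macrophages, but 1.69 and 2.09 CPM in granulocytes, against 1.10 and 1.56 CPM in endothelium. WNT5B rose by 1.58 ± 0.35 (edgeR adjusted p = 0.0010), but not in every blood gate. Erythroid cells had 130.0 and 149.7 CPM and megakaryocytes 58.6 and 53.9 CPM, against 11.8 and 10.9 CPM in endothelium. Macrophages, at 3.32 and 2.10 CPM, lay below endothelium, and granulocytes, at 4.05 and 40.2 CPM, lay below it in the former organoid only. FZD4 fell by 4.83 ± 0.16 (edgeR adjusted p = 7.1e-13) and FZD6 by 1.85 ± 0.11 (edgeR adjusted p = 4.8e-10). On simulated counts this contrast called 554 of 5000 unchanged genes, against 54 to 139 of 5000 in the other 5 contrasts. The last 3 contrasts share the endothelial cells, which also make up the contrast of venous with arterial cells. TBX18-gated cells and cardiomyocytes each enter more than 1 contrast as well, so the contrasts are not independent.

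Other genes of the pathway were read from 3 lists. Of 20 genes for secretion, coreceptors and extracellular modulators, 17 were tested, and the 5 that were called between venous and arterial cells were higher in venous cells, led by ROR2, a WNT5A coreceptor, by 1.76 ± 0.18 (edgeR adjusted p = 4.3e-06), and with LRP5, the coreceptor that sclerostin binds, at 29.7 and 15.4 CPM against 8.76 and 6.21 CPM. Between cardiomyocytes and endothelium 10 were higher and 5 lower, ROR2 at 123 and 161 CPM in cardiomyocytes against 10.3 and 9.20 CPM. In blood WLS, the ligand carrier, fell by 3.47 ± 0.12 (edgeR adjusted p = 6.8e-13), from 66.1 and 70.7 CPM in endothelium to 4.51 and 4.73 CPM.

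The 14 transduction genes were all tested. CTNNB1, which encodes β-catenin, had 287 and 275 CPM in venous and 614 and 651 CPM in arterial cells and fell by 1.32 ± 0.13 on the log2 scale (edgeR adjusted p = 3.8e-06), 1 of 4 that fell in venous cells, with GSK3A, DVL1 and CSNK1A1, against 1, BCL9, that rose. TLE1, a corepressor, was lower in cardiomyocytes than in TBX18-gated mesenchyme by 3.94 ± 0.35 (edgeR adjusted p = 4.8e-07), and TCF7L1, a repressive TCF factor, was lower in blood than in endothelium by 4.19 ± 0.15 (edgeR adjusted p = 1.6e-12).

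Of 12 feedback and target genes 11 were tested. Between venous and arterial cells 1 was called: APCDD1, a membrane inhibitor, had 3.98 and 4.39 CPM in venous and 19.6 and 15.5 CPM in arterial cells, a fall of 2.22 ± 0.30 (edgeR adjusted p = 7.8e-05). Endothelium against mesenchyme gave 3 higher and 6 lower, and LEF1, a TCF factor and target, had 23.8 and 32.5 CPM in endothelium and 116 and 133 CPM in mesenchyme. Cardiomyocytes had more AXIN2, the feedback scaffold, than TBX18-gated cells, at 5.89 and 6.61 CPM against 2.93 and 3.07 CPM, by 1.32 ± 0.35 (edgeR adjusted p = 0.0084). AXIN2 was 1 of 3 that were higher, with ZNRF3 and APCDD1. The 3 that were lower were NKD1, NKD2 and LEF1, the last at 53.3 and 59.0 CPM in cardiomyocytes against 109 and 120 CPM. Between venous and arterial cells 29.4%, 35.7% and 9.09% of the tested genes in the 3 lists, in order, were called, against 20.7% of all genes. Of the first list 88.2% were called between cardiomyocytes and endothelium, against 57.5%. Of the third list 81.8% were called between endothelium and mesenchyme, against 56.2%, and 54.5% between cardiomyocytes and TBX18-gated mesenchyme, against 33.8%. These shares describe the lists and are not evidence about them as sets.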

How the data were processed

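The authors deposited raw UMI counts per gene and barcode for each organoid, made with Cell Ranger 7.0.0 per the file headers, on GRCh38 with intronic reads included. Cells with 50 to 11000 detected genes and under 30% mitochondrial UMIs were kept. Cells positive for exactly 1 of 8 panels were gated, so cells positive for several panels, which include doublets, were left out, and no doublet caller or free-RNA correction was run. UMIs were summed per lineage and organoid for lineages with at least 20 cells per organoid, and tested with edgeR 4.0.16 in R 4.3.3 (TMM, quasi-likelihood, 9 lineages in 1 fit), with an adjusted p under 0.05 as the threshold. The endoderm contrast was not fitted.

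The members and lists were chosen with earlier results of these data known. All 47 members were accounted for, and those reaching 10 CPM in both organoids in at least 1 lineage are given in each organoid. The lineages of an organoid come from the same organoid and are paired by it: over 36 pairs of lineages, deviations from the lineage means correlated at 0.0489 to 0.298 (median 0.13). The organoids were cultured independently and picked among those with the full layered pattern, but the sources used here do not say whether they came from separate differentiations, so p-values measure the spread between these 2 organoids. Libraries held 191152562 and 233818881 UMIs. Alternatives were DESeq2 1.42.0, no count filter, an organoid block, doubled or depth-scaled gate minima, cells of 4000 to 25000 UMIs, 5% of free RNA removed and each organoid alone. The fit was tested on simulated data, where it called unchanged genes most often in the contrast of blood with endothelium. Shares of cells were computed in Python 3.11.15 with scipy 1.17.1, raw and after thinning.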

Additional observations from a re-analysis of the deposited data

How the results depend on the processing

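The number of members called stayed within 1.5 times its value in each of the 6 contrasts under 7 alternatives (DESeq2, no count filter, the organoid block, doubled gate minima, gate minima per 10000 UMIs, cells of 4000 to 25000 UMIs and 5% of free RNA removed). Of the fold changes of members called under at least 1 setting, 749 kept direction and side of the threshold, 36 lost the call and 33 gained it. With the organoid as a block WNT16 and WNT11 gained a call between venous and arterial cells (edgeR adjusted p = 0.0427 and 0.0318) and RSPO3 between cardiomyocytes and TBX18-gated mesenchyme (edgeR adjusted p = 0.00999), and the block changed no other member's call. SOST kept its call between venous and arterial cells throughout. With 1 organoid alone there are no residual degrees of freedom, so those 234 log2 ratios have no test. The cause of the changed calls was not tested. With 2 organoids of 1 line, depth limits what can be said of the 14 members under 1 CPM, given that 3 UMIs correspond to up to 1.26 CPM in the smallest lineage.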
